A study of Mus musculus with 20 samples.

Results

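The genes described here encode the thrombospondins, Thbs1, Thbs2, Thbs3, Thbs4 and Comp, and Cd47, a cell surface receptor of thrombospondin-1. They were chosen by name as a gene family and its receptor, 6 of the 43422 Ensembl genes listed for each mouse. All 20 libraries hold values for all 6. RNA came from the abdominal aorta of C57BL/6 mice (C57Bl/6NCrl in the methods of the study), 5 in each of 4 groups. The groups were wild-type (WT) mice given saline, WT mice given angiotensin II (Ang II), lysyl hydroxylase 1 knock-out mice (Plod1-/-) given saline and Plod1-/- mice given Ang II. Ang II, a vasoconstrictor peptide, was infused at 1000 ng/kg per min from a pump under the skin, and aortas were taken on day 14. The labels give an age of 6 months for every mouse, while the methods of the study give a younger age at the start of infusion. Plod1 encodes an enzyme that hydroxylates lysines of collagen before cross-linking. The deletion was not restricted to the aorta, so every cell type of the tissue carried it.

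Thrombospondins are secreted glycoproteins that bind matrix, growth factors and cell surface receptors. Thrombospondins 1 and 2 form trimers and share the domains that bind CD36 and CD47, and thrombospondin-1 can activate latent TGF-beta. Thrombospondins 3 and 4 and cartilage oligomeric matrix protein (COMP, also called thrombospondin-5) form pentamers. Binding of thrombospondin-1 to CD47 is known to dampen nitric oxide signalling in vascular cells, and CD47 also binds SIRP-alpha on macrophages, where it acts as a signal against engulfment. Thrombospondin-1 was singled out by the study on these same libraries, so its values below are not independent evidence of its direction or of its size.

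All levels are FPKM, fragment counts scaled by transcript length and library size, which are per length and so can be set side by side between genes. In the plot of single mice, Thbs1 separated the Ang II-treated Plod1-/- group from the other 15 mice, whereas Thbs3 showed no such step.

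**Figure D1:**
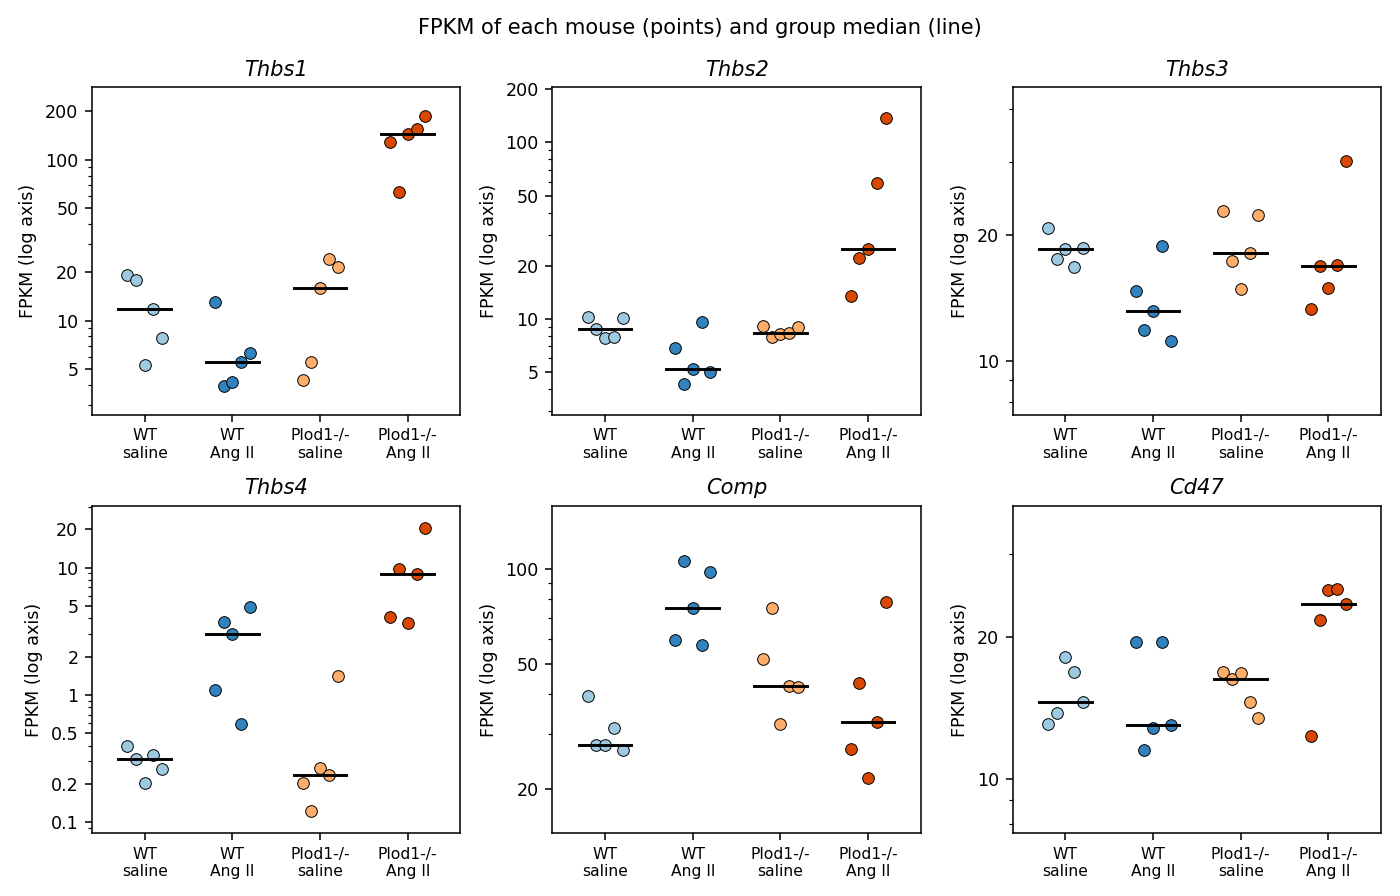
FPKM of each member (log axis, a separate range in each panel) in the 4 groups, with 1 point for each of 5 mice and a line at the group median. For Thbs1 the Ang II-treated Plod1-/- mice lay between 63.2 and 189, above all other mice, and for Comp the Ang II-treated WT mice lay between 57.5 and 106.

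Library facts that bear on the members were as follows. Plod1 was at 22.8 to 29.7 FPKM in WT mice and at no more than 0.0415 FPKM in Plod1-/- mice. Smooth muscle markers, which define the aortic media, summed to between 2326 and 20755 FPKM in every mouse. The study states that only male mice were used, but 2 libraries held Xist RNA, saline-treated Plod1-/- replicate 5 with 15.1 FPKM and Ang II-treated Plod1-/- replicate 1 with 7.93 FPKM, whereas the remaining 18 did not exceed 0.0328 FPKM. Results that rest on these 2 libraries are given with and without them. The mean share of mitochondrial genes in all FPKM was 23.3% in Ang II-treated WT mice and between 11.1% and 13.4% in the other groups. The depth is unknown without read counts, and relative depths derived from the smallest values lay between 0.901 and 1.08.

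The proximal promoters of Thbs2 and Thbs4 are shown because both genes rose in Ang II-treated Plod1-/- mice, as described below, and because they differ in base composition. RefSeq promoter windows (GRCm38.p6, 250 bases before to 50 after the start of transcription) were matched for 4 of the 6 members, Thbs2, Thbs3, Thbs4 and Cd47. Sequences are written 5′ to 3′ on the strand of the gene. Capitals mark matches on either strand to the motifs given after the sequences, which are known for binding SMAD proteins, Sp1 and KLF factors, TEAD factors or the TATA-binding protein.
Thbs2, chr17:14694213-14694512, minus strand: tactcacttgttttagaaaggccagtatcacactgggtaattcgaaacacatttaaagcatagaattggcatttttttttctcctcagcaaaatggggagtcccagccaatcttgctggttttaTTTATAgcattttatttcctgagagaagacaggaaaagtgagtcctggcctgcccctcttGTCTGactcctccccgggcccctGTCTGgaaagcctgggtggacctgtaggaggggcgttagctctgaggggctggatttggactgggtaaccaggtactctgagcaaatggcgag
Thbs4, chr13:92794769-92795068, minus strand: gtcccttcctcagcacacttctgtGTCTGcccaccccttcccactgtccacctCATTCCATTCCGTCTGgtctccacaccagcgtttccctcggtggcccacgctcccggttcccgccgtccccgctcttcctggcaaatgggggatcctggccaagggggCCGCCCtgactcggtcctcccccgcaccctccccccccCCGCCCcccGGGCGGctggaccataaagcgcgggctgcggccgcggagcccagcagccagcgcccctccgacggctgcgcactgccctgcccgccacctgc
The Thbs2 window had a GC content of 48.3% and 4 CpG dinucleotides, and that of Thbs4 had 72% and 24, against a mean GC content of 53.8% over 32851 promoter windows. Both windows held 2 matches to the SMAD motif CAGAC on the reverse strand, which is found in 49.6% of all windows. Thbs2 also held 1 reverse match to the TATA box TATAAA (13.6% of all windows). Thbs4 held 3 matches to the Sp1 motif GGGCGG (35.7% of all windows) and 2 reverse matches to the TEAD motif GGAATG (14.7% of all windows), which share 1 base. The AP-1 motif TGANTCA (7.81% of all windows) and the CArG box of serum response factor (1.63%) had no match in the windows of the 4 members, which says only that these letters are not in the 300 bases searched.

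Differences between groups were tested with limma on log2(FPKM + 1), on which changes of weakly expressed genes appear smaller than they are. Genes entered a fit when 5 or more of its mice reached 1 FPKM. A gene was counted as changed when its Benjamini-Hochberg adjusted p over all genes tested was below 0.05 and its log2 fold change was above 1 in size. The tests are two-sided, and n is 5 mice per group throughout. The limma p-values set a difference in means against the spread between these mice, which limma moderates over all genes tested.

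Between the Ang II-treated genotypes, 4 of the 6 members passed both thresholds, with Thbs1, Thbs2 and Thbs4 higher and Comp lower in Plod1-/- mice. Over all 12356 genes tested, 11.1% passed, 7.45% with higher and 3.67% with lower expression, and 31.2% passed the adjusted p threshold alone. Thbs1 and Thbs2 were free of overlap between these groups, both higher in Plod1-/- mice, as were 10.4% of all genes, while 4.62% were free of overlap and lower. With each mouse left out in turn the count was 2 or 3 of 6, and without the Xist library of this comparison it was 3, since Thbs4 and Comp lay close to the thresholds.

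Thbs1 (ENSMUSG00000040152) lies on chromosome 2 of GRCm38 at 118111876 to 118127133, plus strand. In the 5 saline-treated WT mice it was at 19.3, 18.1, 5.28, 11.9 and 7.84 FPKM. In Ang II-treated WT mice it was at 13.1, 3.92, 4.14, 5.52 and 6.30 FPKM. Saline-treated Plod1-/- mice had 4.29, 5.58, 16.0, 24.1 and 21.7 FPKM, so these 3 groups overlapped and each was widely spread. Ang II-treated Plod1-/- mice had 130.0, 63.2, 144, 156 and 189 FPKM, and the lowest of them was above the highest of all other mice. The mean was 136 ± 46.2 FPKM (SD, n = 5) in that group, 20.7 times that of Ang II-treated WT mice, 6.60 ± 3.78 (SD, n = 5), and 9.52 times that of saline-treated Plod1-/- mice, 14.3 ± 9.07 (SD, n = 5). Thbs1 rose by 4.21 on the log2 scale between the Ang II-treated genotypes (SE 0.34, limma adjusted p = 1.54e-04), the 6th smallest p of 12356 genes. In Plod1-/- mice it rose by 3.34 under Ang II (SE 0.47, limma adjusted p = 3.70e-04). Both changes passed in every fit that left out 1 mouse. In bulk tissue, more cells of a type and more RNA per cell cannot be told apart.

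In WT mice the Thbs1 mean was 6.60 FPKM under Ang II against 12.5 ± 6.14 (SD, n = 5) under saline, a log2 difference of -0.81 (SE 0.36, limma adjusted p = 0.0946) that did not pass. This call rests on single mice: the difference was -1.05 without saline-treated WT replicate 3 (limma adjusted p = 0.0397) and -1.06 without Ang II-treated WT replicate 1 (limma adjusted p = 0.0308), and both then passed. The Ang II response of Plod1-/- mice exceeded that of WT mice by 4.15 on the log2 scale (SE 0.63, limma interaction adjusted p = 1.46e-04). Thbs1 overlaps the lincRNA gene Gm29233 on the opposite strand in an exon, and the libraries do not mark strand, so reads from both genes cannot be told apart. Gm29233 is not listed in the values used here.

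Platelets carry thrombospondin-1 in their granules, so platelet and megakaryocyte markers (7 genes, among them Pf4 and Ppbp) are given beside Thbs1. Their summed level was 153 to 1000.0 FPKM in Ang II-treated Plod1-/- mice and 25.1 to 100.1 FPKM in their WT counterparts, and under saline it was 32.5 to 79.3 FPKM in WT and 12.6 to 31.6 FPKM in Plod1-/- mice. Between the Ang II-treated genotypes 3 of the 6 platelet genes tested were higher and 0 lower. Pf4 made up most of the sum on average, at a mean of 521 FPKM in Ang II-treated Plod1-/- mice. The mean there was 60.4 FPKM for Ppbp and 0.554 to 8.46 FPKM for each other gene of the list. Within the Ang II-treated Plod1-/- group the orders differed, since replicate 5, the highest in Thbs1, had a platelet sum of 279 FPKM and replicate 2, the lowest in Thbs1, had 666. None of the 7 markers was at 0 in all mice of a group. Macrophage markers (6 of 6 higher, summed level 633 to 3682 against 199 to 1288 FPKM), neutrophil markers (4 of 4 tested, 154 to 709 against 6.41 to 191 FPKM) and red blood cell markers (5 of 5, 763 to 9716 against 185 to 666 FPKM) were also higher in Ang II-treated Plod1-/- than in Ang II-treated WT mice. Their part in the result was not tested.

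**Figure D2:**
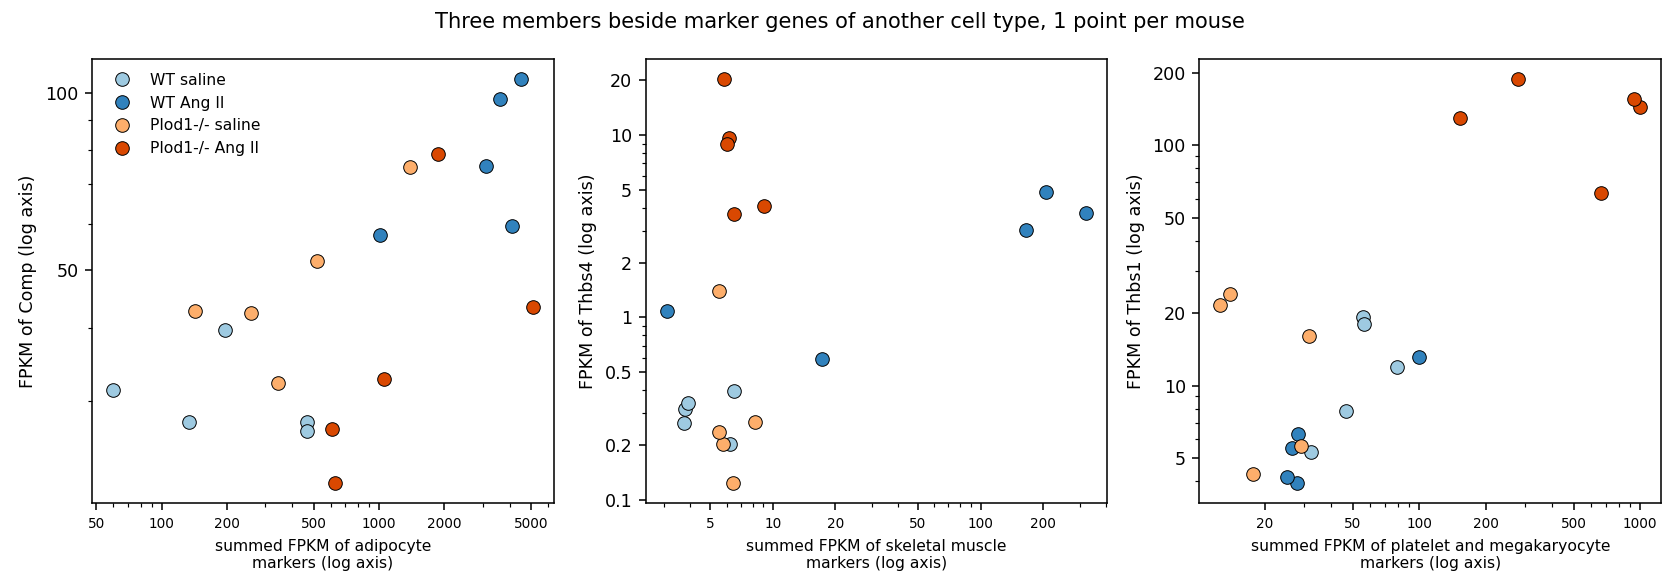
FPKM of Comp, Thbs4 and Thbs1 in each mouse (log axes) against the summed FPKM of adipocyte, skeletal muscle and platelet markers, coloured by group. Pf4 made up most of the platelet sum on average in each group. Comp and the adipocyte markers were both high in Ang II-treated WT mice, Thbs4 was high in 3 Ang II-treated WT mice with skeletal muscle sums of 165 to 323 FPKM and in all Ang II-treated Plod1-/- mice at sums of 5.82 to 9.07 FPKM, and Thbs1 was highest in the 5 mice with platelet sums of 153 to 1000.0 FPKM.

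Thbs2 (ENSMUSG00000023885; chromosome 17, 14665500 to 14694235, minus strand), the other trimeric member and a regulator of collagen fibril assembly, lay between 4.31 and 10.2 FPKM in 3 of the groups. It was at 10.2, 8.74, 7.82, 7.89 and 10.1 FPKM in saline-treated WT mice and at 9.11, 7.86, 8.22, 8.35 and 9.02 FPKM in saline-treated Plod1-/- mice. Ang II-treated WT mice had 6.87, 4.31, 5.19, 9.65 and 5.0 FPKM, with 4 of the 5 below the lowest saline-treated WT mouse. Ang II-treated Plod1-/- mice had 13.5, 22.2, 24.9, 58.6 and 137 FPKM, all above the other 15 mice and widely spread among themselves. Their mean of 51.2 ± 50.8 FPKM (SD, n = 5) rests on replicate 5, without which it was 29.8. Thbs2 rose by 2.41 against Ang II-treated WT mice (SE 0.52, limma adjusted p = 0.00811) and by 1.97 against the saline-treated knock-out group (SE 0.51, limma adjusted p = 0.00969), and without replicate 5 by 1.94 (limma adjusted p = 0.00836) and 1.5 (limma adjusted p = 0.00606). In WT mice the difference of -0.51 passed the adjusted p threshold (limma adjusted p = 0.0444) but not the fold threshold. The former was lost with no filter, with the replicate block (limma adjusted p = 0.0667), with all 4 groups in one fit (limma adjusted p = 0.317) and in every fit that left out 1 mouse other than Ang II-treated replicate 1 or 4 (up to 0.110). The Ang II responses differed between genotypes by 2.48 (SE 0.56, limma interaction adjusted p = 0.00272).

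Fibroblast markers (6 genes, among them Pdgfra, Dcn and Col1a1) had summed levels of 765, 828, 1164, 1757 and 3844 FPKM in Ang II-treated Plod1-/- replicates 1 to 5, the same order of mice as Thbs2. They summed to between 521 and 782 FPKM in WT mice given Ang II, and under saline to between 652 and 1005 in WT and between 376 and 687 in Plod1-/- mice. Of the 6 fibroblast genes, 1 was higher and 1 lower between the Ang II-treated genotypes, Col1a1 by 3.41 and Pi16 by -1.43. On average Col1a1 made up most of the sum in Ang II-treated Plod1-/- mice, with a mean of 1217 FPKM. The means of the other fibroblast markers were 9.17 to 153 FPKM there, so the sum of that group mainly follows Col1a1. The part of fibroblasts in the Thbs2 result was not tested.

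Thbs3 (ENSMUSG00000028047; chromosome 3, 89215180 to 89226837, plus strand), a pentameric member, overlapped between all groups. It was at 20.8, 17.5, 18.6, 16.8 and 18.7 FPKM in saline-treated WT mice and at 14.7, 11.8, 13.2, 18.9 and 11.2 FPKM in Ang II-treated WT mice. Saline-treated Plod1-/- mice had 22.9, 17.4, 14.9, 18.1 and 22.4 FPKM. Ang II-treated Plod1-/- mice had 13.4, 16.9, 15.0, 17.0 and 30.1 FPKM, so all groups overlapped and replicate 5 stood apart. Its log2 difference between the Ang II-treated genotypes was 0.35, with a 95% interval of -0.13 to 0.82 (limma adjusted p = 0.238), and it was 0.16 without replicate 5 (limma adjusted p = 0.489) and 0.52 with weights per mouse (limma adjusted p = 0.0149), short of the fold threshold. In Plod1-/- mice it was -0.09, with an interval of -0.54 to 0.36 (limma adjusted p = 0.754). In WT mice it was -0.40 (limma adjusted p = 0.0388), past the adjusted p threshold but not the fold threshold, and the former was lost in the same fits as for Thbs2 (limma adjusted p of at least 0.0541). Thbs3 overlaps Mtx1, a mitochondrial import gene on the opposite strand, in an exon, so its values are uncertain. Mtx1 was between 6.15 and 12.3 FPKM in all mice.

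Thbs4 (ENSMUSG00000021702; chromosome 13, 92751590 to 92794818, minus strand) was the least abundant member in saline-treated mice. This pentameric thrombospondin is known from tendon and from injured heart and muscle. Saline-treated WT mice had 0.397, 0.315, 0.202, 0.339 and 0.262 FPKM, and Ang II-treated WT mice had 1.09, 3.76, 3.02, 0.593 and 4.87 FPKM. The 2 WT groups did not overlap. Saline-treated Plod1-/- mice had 0.203, 0.123, 0.266, 0.234 and 1.40 FPKM, the highest being replicate 5, a library with Xist RNA. In Ang II-treated Plod1-/- mice Thbs4 was at 4.12, 9.68, 3.70, 8.96 and 20.4 FPKM, above both saline-treated groups but overlapping with Ang II-treated WT mice, since 3 of the 5 lay above the highest of these.

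Thbs4 rose by 1.44 on the log2 scale between the Ang II-treated genotypes (SE 0.47, limma adjusted p = 0.0378). The mean was 9.37 ± 6.73 FPKM (SD, n = 5) against 2.67 ± 1.80 (SD, n = 5). This call was weak: it was lost with no filter on low values (limma adjusted p = 0.103), with quantile normalization (limma adjusted p = 0.0582) and when 7 of the 10 mice were left out in turn, where the limma adjusted p ran from 0.0234 to 0.0802. The mice whose removal ended it were Ang II-treated WT replicates 1, 2, 3 and 4 and Ang II-treated Plod1-/- replicates 2, 4 and 5. In Plod1-/- mice the fitted Thbs4 difference under Ang II was 2.68 (SE 0.39). It passed the filter through the 5 Ang II-treated mice, and only replicate 5 of the saline-treated mice reached 1 FPKM, so a gene at this level had to differ to be tested and its p is not given. In WT mice it was below the filter, and the difference of 1.33 on the log2 scale under Ang II had an exact permutation p of 0.00794, the smallest that 5 mice against 5 allow. The saline-treated genotypes differed by 0.09 (exact permutation p = 0.952), and by -0.11 without the Xist library (exact permutation p = 0.111). The Ang II responses differed between genotypes by 1.35 (SE 0.53, limma interaction adjusted p = 0.0525), which did not pass. Without both Xist libraries the difference was 1.75 (limma interaction adjusted p = 0.0140), which did, and it also passed without Ang II-treated WT replicate 2 or 5, saline-treated Plod1-/- replicate 5, or Ang II-treated Plod1-/- replicate 1 or 3 (1.49 to 1.58, limma interaction adjusted p = 0.0251 to 0.0459).

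Skeletal muscle markers (6 genes, among them Ckm and Acta1) moved with Thbs4 among Ang II-treated WT mice. Their summed level was 3.09, 323, 165, 17.2 and 208 FPKM in replicates 1 to 5, and the 3 mice with sums of 165 or more had the 3 highest Thbs4 values, 3.02 to 4.87 FPKM. In Ang II-treated Plod1-/- mice the sum was 5.82 to 9.07 FPKM, close to the 3.73 to 8.21 FPKM of saline-treated mice, while Thbs4 was at 3.70 to 20.4 FPKM. Tendon and cartilage markers (6 genes, among them Tnmd and Fmod) summed to between 27.2 and 93.0 FPKM in Ang II-treated Plod1-/- mice. The sums were 33.1 to 106 FPKM in Ang II-treated WT mice and 92.6 to 131 FPKM in saline-treated WT mice. Fmod made up most of the saline-treated WT sum on average, with a mean of 82.6 FPKM there and 25.9 FPKM in Ang II-treated Plod1-/- mice. The means of Acan in these 2 groups were 10.5 and 8.25 FPKM. Scx and Tnmd went the other way, from 9.67 to 18.5 and from 0.889 to 2.26 FPKM. Between the Ang II-treated genotypes 0 of the 5 genes tested passed. The part of muscle in the WT values was not tested.

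Comp (ENSMUSG00000031849; chromosome 8, 70373558 to 70382066, plus strand), a pentameric protein that binds collagen and is abundant in cartilage and also made by vascular smooth muscle, was the most abundant thrombospondin RNA in saline-treated mice. It was at 39.6, 27.7, 27.7, 31.3 and 26.7 FPKM in saline-treated WT mice and at 59.4, 106, 75.0, 57.5 and 97.7 FPKM in Ang II-treated WT mice, with no overlap. In WT mice Comp rose by 1.31 under Ang II (SE 0.19, limma adjusted p = 0.00181), and did so in every fit that left out 1 mouse. It was the 1 member of the 5 tested to pass both thresholds in WT mice, where 8.66% of 11994 genes did, 6.38% higher and 2.28% lower. Of these genes 38% passed the adjusted p threshold alone, as did 3 of the 5 members, Comp and, less stably as given above, Thbs2 and Thbs3. Comp was free of overlap, as were 10.4% of the genes tested with the Ang II-treated group higher and 6.88% with it lower. Saline-treated Plod1-/- mice had 51.9, 75.0, 32.2, 42.6 and 42.4 FPKM. In Ang II-treated Plod1-/- mice Comp was at 26.9, 43.3, 21.8, 32.7 and 78.6 FPKM, a range that covered all 5 saline-treated values, and the difference within Plod1-/- mice was -0.35 with a 95% interval of -1.08 to 0.38 (limma adjusted p = 0.419). Single mice moved it: it was -0.62 without Ang II-treated replicate 5 (limma adjusted p = 0.0807), -0.17 without Ang II-treated replicate 3 and -0.18 without saline-treated replicate 2, and did not pass in these fits. Comp was lower in Ang II-treated Plod1-/- than in Ang II-treated WT mice by -1.04 on the log2 scale (SE 0.32, limma adjusted p = 0.0309), with a mean of 40.7 ± 22.7 FPKM (SD, n = 5) against 79.0 ± 21.9 FPKM (SD, n = 5). That call was lost with no filter (limma adjusted p = 0.0841) and without the Xist library of this comparison, Ang II-treated Plod1-/- replicate 1 (log2 difference -0.94, limma adjusted p = 0.0512). It was also lost without Ang II-treated WT replicate 2, 3 or 5 and without Ang II-treated Plod1-/- replicate 3 or 4 (-1.05 to -0.86). The Ang II responses differed between genotypes by -1.66 (SE 0.40, limma interaction adjusted p = 0.00373), a difference that passed in all 20 fits that left out 1 mouse.

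For Comp the saline-treated genotypes differed by 0.62 (SE 0.20, limma adjusted p = 0.0804), with 4 of the 5 Plod1-/- mice above the highest WT mouse. Adipocyte markers (6 genes, among them Adipoq and Plin1) were, like Comp, higher under Ang II in WT mice. Within the WT groups the order of mice was shared only in part. Saline-treated WT replicate 5 had the highest adipocyte sum of its group, 468 FPKM, and the lowest Comp, 26.7 FPKM. Ang II-treated WT replicate 2 was the highest of its group in both. Their summed level in WT mice was 59.8 to 468 FPKM under saline and 1008 to 4504 FPKM under Ang II, and in Plod1-/- mice it was 142 to 1391 FPKM and 605 to 5094 FPKM. Of the adipocyte genes tested, 5 of 5 were higher under Ang II in WT mice. Between the Ang II-treated genotypes 2 of 6 were lower in Plod1-/- mice, Ucp1 by -3.52 and Cidea by -3.13. Plin1 (-1.70), Adipoq (-0.26), Cfd (-0.03) and Lep (0.66) did not pass. The mean of Ucp1 was 1192 FPKM in Ang II-treated WT mice and 50.7 to 187 FPKM in the other groups. In saline-treated Plod1-/- mice replicate 2 was the highest in both Comp and the adipocyte sum. The highest adipocyte sum of all mice was that of Ang II-treated Plod1-/- replicate 2, whose Comp level was 43.3 FPKM. Cfd, at up to 3904 FPKM in that group, made up most of that sum. The other adipocyte markers did not exceed 611 FPKM in that group. The part of adipose tissue in the Comp result was not tested.

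Cd47 (ENSMUSG00000055447; chromosome 16, 49800533 to 49915010, plus strand) was at 13.1, 13.8, 18.1, 16.9 and 14.6 FPKM in saline-treated WT mice and at 19.5, 11.5, 12.9, 19.5 and 13.0 FPKM in Ang II-treated WT mice. Saline-treated Plod1-/- mice had 16.9, 16.3, 16.8, 14.6 and 13.5 FPKM, within the same range. Ang II-treated Plod1-/- mice had 12.3, 21.8, 25.3, 25.4 and 23.5 FPKM, so 4 of the 5 were above all other mice and replicate 1, the library with Xist RNA, was below the mean of each other group. For the Ang II-treated genotypes the log2 difference was 0.47, with a 95% interval of -0.02 to 0.96 (limma adjusted p = 0.130), and under Ang II in Plod1-/- mice it was 0.41, with an interval of 0.01 to 0.81 (limma adjusted p = 0.0900). Without replicate 1 these were 0.65 (limma adjusted p = 0.0169) and 0.59 (limma adjusted p = 5.83e-04), past the adjusted p threshold but not the fold threshold. In WT mice the difference was -0.02, with an interval of -0.38 to 0.34 (limma adjusted p = 0.913). Cd47 therefore passed both thresholds in no comparison, with an interaction of 0.43 (SE 0.25, limma adjusted p = 0.179) and 1 comparison with an unadjusted limma p under 0.05. The interaction was 0.62 without replicate 1 of the Ang II-treated Plod1-/- mice (limma adjusted p = 0.0189), 0.57 without both Xist libraries (limma adjusted p = 0.0356) and 0.84 with weights per mouse (limma adjusted p = 3.59e-04), and with these weights the difference between the Ang II-treated genotypes was 0.82 (limma adjusted p = 3.87e-04), all short of the fold threshold. Replicate 1 also had a smooth muscle marker sum of 16990 FPKM against 2326 to 6204 FPKM in the other 4 mice of its group, and the lowest macrophage sum of that group, 633 FPKM.

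The plot of the fitted differences sets the 5 comparisons side by side. Within Plod1-/- mice Thbs1 and Thbs2 rose under Ang II, where 8.38% of 12333 genes rose, 5.51% fell and 43.8% passed the adjusted p threshold alone. Thbs4 also passed both thresholds, but it is left out of this count because it was tested only through the group in which it was high, and it was below the filter without both Xist libraries. Thbs1 and Thbs2 did not overlap between these groups, against 14.2% of all genes with the Ang II-treated group higher and 15% with it lower. Thbs4 did not overlap either, but is left out here for the same reason. Between the saline-treated genotypes limma called 0 of the 5 members tested, 1 of them, Comp, with an unadjusted p under 0.05, and 0.767% of 11999 genes passed (0.358% higher, 0.408% lower, and 6.55% on the adjusted p alone). No member was free of overlap there, where 4.22% of genes were, with Plod1-/- mice higher, and 5.3% with them lower. The Ang II responses of the genotypes differed for 3 of 6 members, Thbs1 and Thbs2 upward and Comp downward, where 16.1% of 13263 genes passed, 9.69% upward and 6.36% downward, and 37.8% passed on the adjusted p alone. The median log2 difference of all genes was 0.12 between the Ang II-treated genotypes, 0.05 within Plod1-/- mice, -0.14 within WT mice and -0.01 between the saline-treated genotypes. The comparisons share groups, so their values are not independent of each other.

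**Figure D3:**
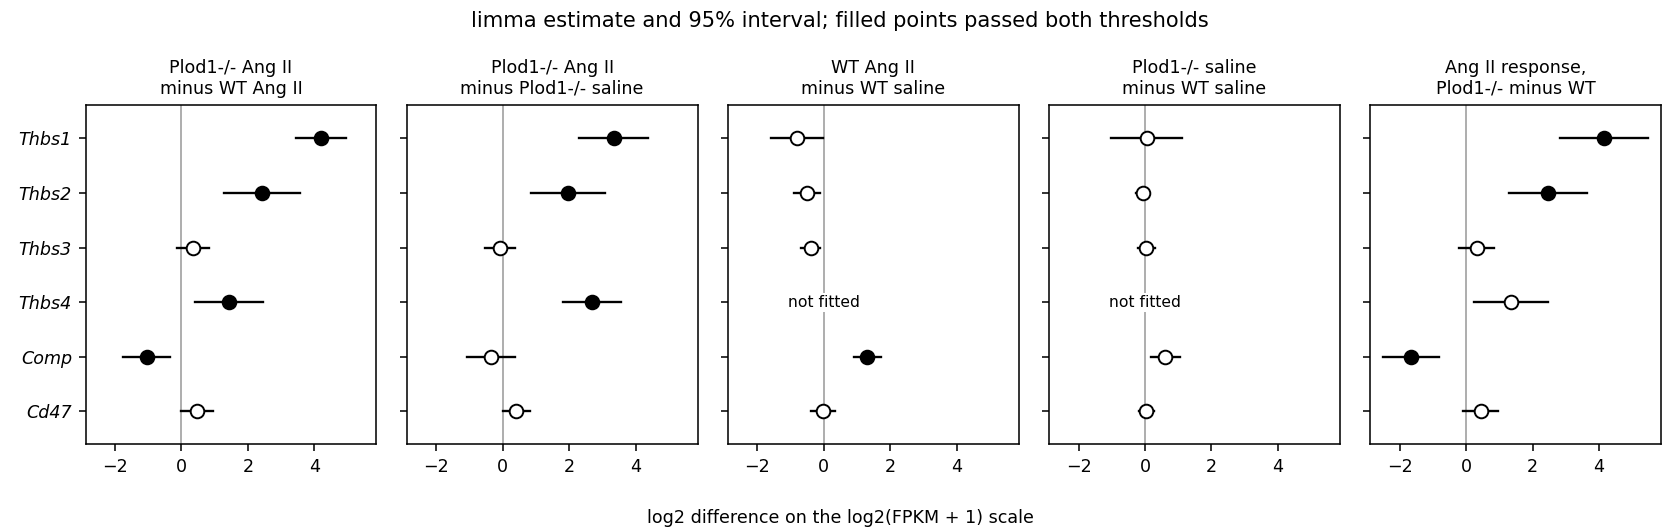
limma log2 differences of the 6 members with 95% intervals in 5 comparisons, on the log2(FPKM + 1) scale. Filled points passed both thresholds, which Thbs1 did in 3 comparisons with differences of 3.34 to 4.21 and Cd47 did in none, and Thbs4 was not fitted in 2 comparisons because too few mice reached 1 FPKM.

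Thbs1 had the largest fitted difference of the 6 members between the Ang II-treated genotypes. On the log2(FPKM + 1) scale its difference exceeded that of Comp by 5.25, that of Thbs3 by 3.86, that of Cd47 by 3.74, that of Thbs4 by 2.77 and that of Thbs2 by 1.79, the last of which was 1.45 without the Xist library. These are given as a description with no test, because the study singled out Thbs1 from this same comparison. It did so by p-value, by fold change and by earlier reports on thrombospondin-1.

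The make-up of thrombospondin RNA differed accordingly. Comp was the most abundant of the 5 thrombospondin genes in all 15 mice of the other groups, and Thbs1 was in all 5 Ang II-treated Plod1-/- mice. In saline-treated WT mice the order of the means was Comp (30.6 FPKM), Thbs3 (18.5), Thbs1 (12.5), Thbs2 (8.96) and Thbs4 (0.303). The ranges of Thbs3, Thbs1 and Thbs2 overlapped along that order, while Comp and Thbs4 stood clear of their neighbours. In Ang II-treated Plod1-/- mice the order was Thbs1 (136 FPKM), Thbs2 (51.2), Comp (40.7), Thbs3 (18.5) and Thbs4 (9.37), and the ranges of each pair of neighbours overlapped. Thbs2 stood above Comp through replicate 5, since the medians were 24.9 and 32.7 FPKM and the means without the highest mouse 29.8 and 31.2 FPKM.

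As a share of the summed FPKM of the 5 genes, Thbs1 took 21.3%, 25.0%, 8.87%, 17.5% and 12.3% in saline-treated WT mice. It took 13.8%, 3.03%, 4.12%, 5.99% and 5.04% in Ang II-treated WT mice and 4.85%, 5.26%, 22.4%, 25.8% and 22.4% in saline-treated Plod1-/- mice. In Ang II-treated Plod1-/- mice it took 69.2%, 40.7%, 68.8%, 57.1% and 41.5%, with no overlap with the other groups. The mean share was 55.5% ± 14.0 (SD, n = 5) there, against 6.39% ± 4.28 (SD, n = 5) for WT mice given Ang II. The Comp share was 16.4% ± 6.94 (SD, n = 5) and 71.8% ± 8.96 (SD, n = 5) in these groups. Shares of one sum are tied, so a larger Thbs1 share by itself lowers the Comp share. Within Plod1-/- mice the mean Comp share was 52.8% under saline and 16.4% under Ang II, while mean Comp was 48.8 and 40.7 FPKM. The summed level itself was 70.8 ± 11.9 FPKM under saline and 108 ± 17.5 FPKM under Ang II in WT mice, and 91.2 ± 12.7 and 256 ± 119 FPKM in Plod1-/- mice (SD, n = 5). Ang II-treated Plod1-/- replicate 5 had the highest value of its group for all 5 thrombospondins, and its sum was 454 FPKM against 155 to 273 FPKM in the other 4 mice.

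**Figure D4:**
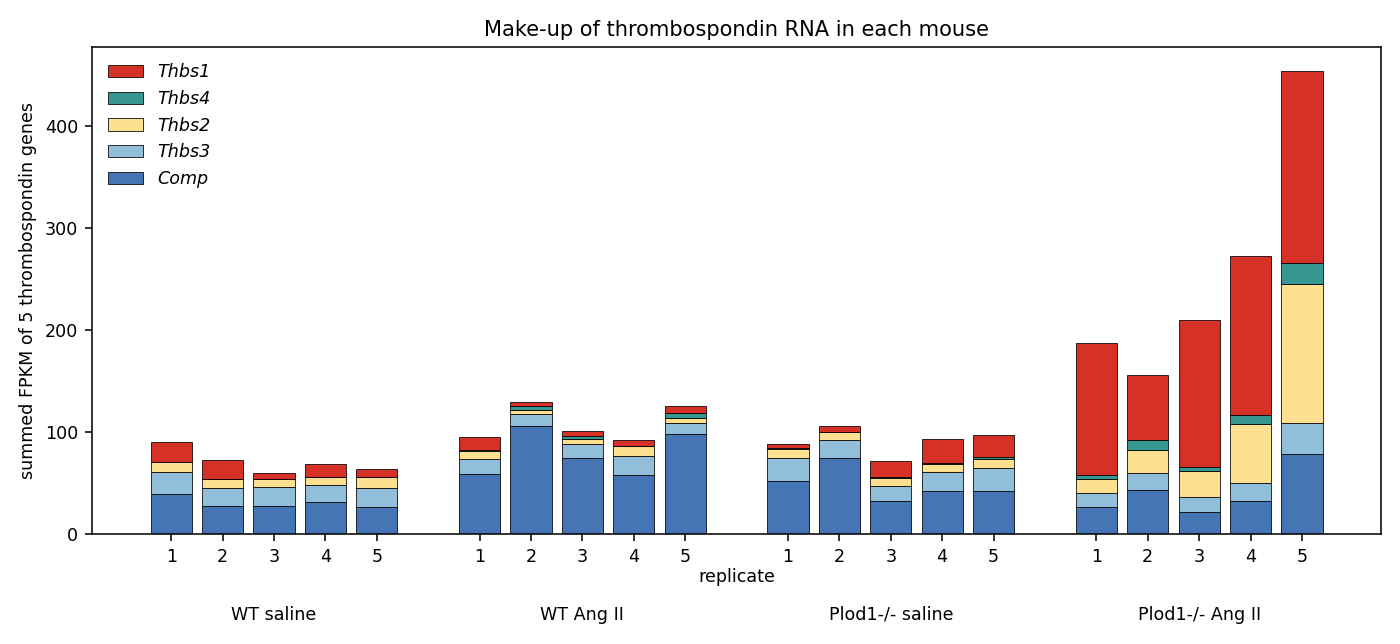
Stacked bars of the FPKM of the 5 thrombospondin genes in each mouse, by group and replicate. Comp is the largest segment in the 15 mice of the first 3 groups and Thbs1 is the largest in all 5 Ang II-treated Plod1-/- mice, whose sums run from 155 to 454 FPKM.

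Receptors and partners were read from a list of 12 genes. Of 11 tested between the Ang II-treated genotypes, 1 was higher and 0 lower, and the median log2 difference was 0.43 against 0.12 for all genes. That gene was Sirpa, which encodes SIRP-alpha, the macrophage partner of CD47. Sirpa was at 8.98, 41.3, 61.9, 66.7 and 42.9 FPKM in Ang II-treated Plod1-/- mice and at 18.1, 6.67, 6.83, 7.77 and 9.14 FPKM in Ang II-treated WT mice. Replicate 1 of the former lay within the WT range and the other 4 lay above it. Sirpa rose by 1.92 (SE 0.48, limma adjusted p = 0.0144), by 2.45 under Ang II within the knock-out (SE 0.45, limma adjusted p = 0.00158), while its interaction was 2.19 (SE 0.53, limma adjusted p = 0.00403). The macrophage marker sums of the 5 Ang II-treated Plod1-/- mice were 633, 2086, 3666, 3682 and 1782 FPKM, lowest in the same mouse as Sirpa and highest in the same mouse. Their part in the Sirpa result was not tested.

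Cd36, a scavenger receptor that binds thrombospondins 1 and 2 and is abundant in adipocytes and capillaries, rose by 3.52 under Ang II in WT mice (SE 0.57, limma adjusted p = 0.00210). It was at 8.22, 6.52, 38.6, 5.22 and 32.6 FPKM in saline-treated and 160.2, 231, 207, 60.1 and 240 FPKM in Ang II-treated WT mice, with no overlap. In Ang II-treated Plod1-/- mice it was at 16.5, 246, 61.9, 126 and 175 FPKM, and neither comparison of that group passed (limma adjusted p = 0.348 against Ang II-treated WT and 0.0718 against saline-treated Plod1-/- mice). The adipocyte sums given above for Comp were also higher in WT mice under Ang II.

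Of the integrin and proteoglycan genes that bind thrombospondins, Itgb1, Itgb3 and Sdc4 were lower under Ang II in WT mice, by log2 differences of -1.03, -1.19 and -1.04 (limma adjusted p = 0.00614, 0.00216 and 0.0172). With Cd36 these were the 4 of 10 genes tested that passed there, 1 higher and 3 lower, with a list median of -0.78 against -0.14 for all genes. In Plod1-/- mice 1 of 10 was higher under Ang II, Sirpa, and 2 were lower, Itga3 by -1.22 and Cacna2d1, a calcium channel subunit that binds thrombospondins, by -1.11 (limma adjusted p = 0.0247 and 1.66e-04). Sdc4 also had an interaction of 1.51 (limma adjusted p = 0.00794). Lrp1, Calr and Itgav passed both thresholds in no comparison. Itga6 did not pass between the Ang II-treated genotypes or in the interaction, and was below the filter in the other comparisons. Its mean was 0.376 FPKM under saline and 2.02 FPKM under Ang II in WT mice, and 0.487 and 4.51 FPKM in Plod1-/- mice. Itga4, at no more than 1.12 FPKM in any mouse, was below the filter throughout and was not tested. For the saline-treated genotypes limma called 0 of 10, with 4 at an unadjusted p under 0.05.

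Thrombospondin-1 can release TGF-beta from its latent complex, so 13 genes of TGF-beta activation and response were set beside it. Of 11 tested between the Ang II-treated genotypes, 2 were higher and 0 lower, among them Tgfb1, a TGF-beta ligand, by 1.02 (limma adjusted p = 0.0102), with a list median of 0.59 against 0.12 for all genes. In WT mice 0 were higher and 5 lower under Ang II, among them Ccn2 by -1.49, Tgfb3 by -1.20, Tgfbr1 by -1.18 and Ltbp1 by -1.05. In Plod1-/- mice 1 gene passed, Ltbp1, a latent TGF-beta binding protein, at -1.23 (limma adjusted p = 0.0147). The interaction passed for 2 genes, among them Ccn2 (1.55). For the saline-treated genotypes limma called 0 of 11, with 4 at an unadjusted p under 0.05.

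Genes of nitric oxide, cyclic GMP and VEGF receptor signalling, the pathway that CD47 is known to restrain, were read from a list of 10. Of 8 tested between the Ang II-treated genotypes limma called 0, with 2 at an unadjusted p under 0.05, Gucy1a1 and Pde5a, named here after their values were seen, with log2 differences of -0.90 and -0.94. The list median was -0.63 against 0.12 for all genes. Within Plod1-/- mice 3 of 8 were lower under Ang II: Pde5a (cyclic GMP phosphodiesterase) by -1.85 and the guanylate cyclase subunits Gucy1a1 by -1.77 and Gucy1b1 by -1.52 (limma adjusted p = 2.28e-05, 1.85e-05 and 2.18e-04). Kdr, a VEGF receptor, was higher by 1.09 (limma adjusted p = 0.0411). In WT mice 2 of 8 were higher under Ang II, Kdr by 2.24 and Vegfa by 2.11 (limma adjusted p = 0.00364 and 0.00181), and 0 lower. The list median under Ang II was -0.55 in WT mice against -0.14 for all genes, and -0.42 in Plod1-/- mice against 0.05. An unadjusted limma p under 0.05 was found for 7 of 8 genes in WT and 5 of 8 in Plod1-/- mice. In WT mice the means of Gucy1a1, Gucy1b1 and Pde5a were 17.5, 35.4 and 17.5 FPKM under saline and 12.2, 21.5 and 10.2 FPKM under Ang II. The interaction passed for Gucy1a1 (-1.14) and Pde5a (-1.01). Smooth muscle markers were also lower under Ang II, 6 of 7 in Plod1-/- mice and 2 of 7 in WT mice. Ang II-treated Plod1-/- replicate 1, a library with Xist RNA, had a smooth muscle sum of 16990 FPKM. The sums of saline-treated Plod1-/- mice were 15079 to 20755 FPKM. In the Ang II-treated Plod1-/- group Gucy1a1, Gucy1b1 and Pde5a did not exceed 6.09, 16.8 and 5.65 FPKM. Their lowest values in saline-treated Plod1-/- mice were 17.0, 28.3 and 15.4 FPKM. The part of smooth muscle was not tested. For the saline-treated genotypes limma called 0 of 7, with 1 at an unadjusted p under 0.05.

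Other matricellular genes, which like thrombospondins encode matrix proteins that signal to cells, were higher in 8 of 13 and lower in 0 of 13 between the Ang II-treated genotypes, with a median of 1.31 against 0.12. The 6 largest were Spp1 (osteopontin) by 3.12, Ccn4 by 2.30, Tnc (tenascin C) by 2.29, Tnn (tenascin N) by 2.12, Ccn1 by 1.71 and Postn (periostin) by 1.65. Ccn4 and Tnn, at no more than 0.661 and 0.627 FPKM in Ang II-treated WT mice, were tested only through the Plod1-/- mice in which they were high, so they had to differ and the count of 8 includes them. Spp1 was spread widely, at 79.6 to 828 FPKM in Ang II-treated Plod1-/- mice and 9.37 to 282 FPKM in Ang II-treated WT mice. Within Plod1-/- mice 4 were higher under Ang II, Spp1, Ccn4, Tnn and Tnc by 1.79 to 4.37, and 4 were lower, led by Sparcl1 (-1.92) and Ccn3 (-1.73). Tnn again entered only through the Ang II-treated mice, since it was at no more than 0.736 FPKM under saline. In WT mice 1 of 11 was higher, Spp1 by 3.05, and 3 were lower, Ccn1, Postn and Ccn3 by -2.04 to -1.02. Between the saline-treated genotypes 1 of 11 was higher, Spp1 by 1.81, and 1 lower, Smoc2 by -1.04. The interaction passed for 7 of 13, 6 upward and Sparcl1 downward.

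Thbs1 is known as a gene that serum and growth factors induce quickly, so 15 immediate early genes were set beside it. Of these, 13 were higher and 0 lower between the Ang II-treated genotypes, with a median of 1.73 against 0.12, led by Fos (5.21), Fosb (4.31), Junb (3.13), Egr1 (2.60), Zfp36 (2.11) and Ier2 (2.03). In WT mice 12 of 15 were lower under Ang II and 0 higher, with a median of -2.21, and in Plod1-/- mice 5 of 15 were higher and 0 lower. Under saline 2 of 15 were lower in Plod1-/- mice, Fosb and Nr4a3. Fos did not follow Thbs1 across all groups. It was at 87.5 to 358 FPKM in saline-treated WT mice and at 99.5 to 401 FPKM in Ang II-treated Plod1-/- mice. Thbs1 was at 5.28 to 19.3 and 63.2 to 189 FPKM in the same groups. Other genes of the list differed from Fos, with means in these groups of 130 and 233 FPKM for Junb and 242 and 90.6 FPKM for Egr1. The part of these genes in the Thbs1 result was not tested. The interaction passed for 14 of 15, all upward.

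The genes whose log2(FPKM + 1) was most like that of each member over the 20 mice were ranked by Pearson's r among 13263 genes, as a description. The points share the 4 groups, so r of the deviations from group means is given beside it. For Thbs1 they were Loxl2, a lysyl oxidase family member (r = 0.96, 0.70 for the deviations), Btbd19 (0.95, 0.70), Glipr2 (0.95, 0.73), Fkbp11 (0.95, 0.70) and Tmsb10 (0.94, 0.70). For Thbs2 they were Grb10, Tnn, Fbn1 (fibrillin-1), Col5a1 and Col12a1, with r of 0.96 to 0.98 and 0.90 to 0.94 for the deviations.

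For Thbs4 the nearest genes were Cilp, Fscn1, Tlnrd1, Polr3g and Lrrc15, with r of 0.90 to 0.95 and 0.53 to 0.78 for the deviations. For Comp they were Ganc, Pcca, B430219N15Rik, Clybl and Vwa8, with r of 0.89 to 0.93 and 0.76 to 0.88 for the deviations. Clybl, a mitochondrial enzyme gene, was at a mean of 73.0 FPKM in Ang II-treated WT mice and 19.4 to 30.4 FPKM in the other groups, the same group being highest as for Comp. For Thbs3 the highest r were 0.83 to 0.86 (Brms1l, Bace1, Gpc4, Dync1li2 and Setd5) and for Cd47 0.92 to 0.94 (Wtap, Adam10, Eps15, Ostm1 and Ppp1r21). Among the members the closest pair over all mice was Thbs1 and Thbs2 (r = 0.83), but their deviations within groups had an r of 0.28, whereas those of Thbs2 and Thbs3 had 0.82 and those of Thbs4 and Comp 0.70.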

How the data were processed

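RNA of 20 abdominal aortas, 5 mice in each of 4 groups, was sequenced after library preparation with a kit that does not mark strand. The authors aligned reads with HISAT2 (2.1.0 per their processing notes, which also list Bowtie2 2.2.3 and HTSeq 0.6.0) and used stringtie, cuffquant and cuffnorm. The authors deposited 1 file of FPKM for each mouse, scaled between libraries by cuffnorm, with mm10 as the build. The labels' extraction text describes array hybridization as well as sequencing, and the values were treated as sequencing. Symbols and coordinates came from GENCODE mouse release 21 (43226 of 43422 genes matched).

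Groups and replicate numbers came from the labels. FPKM were analysed with R 4.3.3, limma 3.58.1 (eBayes with a variance trend) and Python 3.11.15 with SciPy 1.17.1, on log2(FPKM + 1), with genes at 1 FPKM or more in at least 5 mice of a fit and Benjamini-Hochberg adjustment over all genes tested. The interaction used all 20 mice. The count test of the study, edgeR, could not be used on FPKM. Members below the filter were compared with exact permutation tests. The fits were tested on simulated data.

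The members and gene lists were chosen with earlier results of these data known. Named genes are the members, list genes past both thresholds (at most 6 per list and comparison, by size), CD47 partners, Plod1, and the 5 genes most like each member, except 1 list gene that is not reported here. Alternatives were a pseudocount of 0.1, no filter, a replicate block, no variance trend, quantile normalization, weights per mouse, the adjusted p alone, all groups in one fit, each mouse left out, both Xist libraries left out, and shares without Comp. The tests of Thbs4 below the filter without single mice or the Xist library were added after seeing the data.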

Additional observations from a re-analysis of the deposited data

Results flagged for a closer look

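In 4 of the 24 sets of 5 mice (6 members in 4 groups) the highest or lowest mouse lay further from the others than Dixon's 95% critical value of 0.71 allows. For normally distributed values chance gives about 1 in 20. The ratio was taken on FPKM, not on the log2(FPKM + 1) scale of the tests, so this rate may not hold. A high mouse has a smaller ratio on the log2 scale. The Thbs1 and Thbs3 flags, at 0.741 and 0.783 on FPKM, may depend on the scale. Thbs1 was at 13.1 FPKM in Ang II-treated WT replicate 1, against 3.92 to 6.30 in the other 4 mice, and this mouse also had the highest macrophage (1288 FPKM) and platelet (100.1 FPKM) marker sums of its group. Thbs3 had 30.1 FPKM in replicate 5 of the Ang II-treated Plod1-/- group, against 13.4 to 17.0 in the others, the mouse with the highest level of all 5 thrombospondins and of the fibroblast marker sum in that group. Thbs4 was at 1.40 FPKM in saline-treated Plod1-/- replicate 5, a library with Xist RNA, against 0.123 to 0.266 in the others. Cd47 had 12.3 FPKM in replicate 1 of the Ang II-treated Plod1-/- group, the other library with Xist RNA, against 21.8 to 25.4 in the others.

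The Ang II response of Plod1-/- mice differed from that of WT mice for 3 members in the limma interaction: by 4.15 for Thbs1 (adjusted p = 1.46e-04), by 2.48 for Thbs2 (adjusted p = 0.00272) and by -1.66 for Comp (adjusted p = 0.00373), on the log2 scale. All 5 Ang II-treated Plod1-/- mice lay above all other mice for Thbs1 and Thbs2.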

How the results depend on the processing

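Across the alternatives run, 717 recomputed values kept their direction and their side of the threshold, 17 lost the threshold, 12 came to pass it, 21 changed sign and 9 counts moved by over 1.5 times. The count of members past both thresholds between the Ang II-treated genotypes was 4, and 2 with no filter on low values. It was 2 to 3 with each mouse left out, 2 without Ang II-treated WT replicate 2 or 3 or Ang II-treated Plod1-/- replicate 4. In WT mice the count was 1, and 2 with no filter, 3 with the adjusted p alone and 2 with all 4 groups in one fit, and it was 1 to 2 with each mouse left out. The Thbs4 difference between the saline-treated genotypes was 0.09, -0.11 without the Xist libraries, and -0.11 to 0.16 with each mouse left out. Small differences that passed no threshold changed sign: without both Xist libraries Thbs3 within Plod1-/- mice became 0.067, and between the saline-treated genotypes Thbs1 became -0.15 and Thbs3 -0.025, while Cd47 became -0.036 there with weights per mouse. With each mouse left out, Thbs3 within Plod1-/- mice ran from -0.27 to 0.0079, Cd47 within WT mice from -0.12 to 0.063, and between the saline-treated genotypes Thbs1 from -0.19 to 0.37, Thbs3 from -0.032 to 0.11 and Cd47 from -0.018 to 0.093. The cause of these changes was not tested.

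The labels number the replicates 1 to 5 in each group but do not say that a number marks a shared litter or day. Same-numbered mice correlated above 0.1 in their deviations in 8 of 30 pairs (-0.33 to 0.45 over 13263 genes), so the numbers were not taken as pairs. With replicate number as a block the counts of members called were 4 between the Ang II-treated genotypes, 3 within Plod1-/- mice, 1 within WT mice and 0 between the saline-treated genotypes, as without it, and 4 in place of 3 for the interaction, where Thbs4 passed (1.35, limma adjusted p = 0.0273). Weights per mouse also made that interaction pass (1.05, limma adjusted p = 0.0361). The block changed no other call past both thresholds. The count of 3 within Plod1-/- mice includes Thbs4. Depth is unknown, so no limit of detection can be given for Thbs4 or Itga4, whose values were low.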
